A study of Arabidopsis thaliana with 14 samples.

Results

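The genes described here encode 3 families of oxidising enzymes, most of them annotated to the endomembrane system, cell wall or apoplast. These genes were listed as changed in whole Arabidopsis thaliana seedlings carrying the fen1 mutation. Members were taken from the authors' deposited table of changed genes by their short description, as peroxidase superfamily proteins, FAD-binding berberine family proteins, laccases or cupredoxins, with AT5G67400 left out. That gave 34 of the 1114 listed genes, made up of 22 peroxidases, 11 berberine-type oxidases and 1 laccase, while no listed gene had a cupredoxin description. The descriptions do not use the size or direction of the change, but the families were chosen with earlier results of these data known. Every gene in the table had passed the authors' test, so all 34 were called by construction.

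The groups were fen1 mutant seedlings and seedlings of a transgenic wild type (TWT), both of the C24 ecotype, 10 days old, grown untreated on sucrose medium at 22 °C. The labels do not give the fen1 allele or name the transgene, and FEN1 encodes flap endonuclease 1, which trims DNA flaps during replication and repair. RNA came from 2 libraries of each genotype, which the authors combined into 1 FPKM value (fragments scaled to transcript length and library size) per genotype. Chromatin peaks were used for H3K27me3, H3K4me3 and H3K9me2, from 1 TWT library each. No value per RNA library was used here and read depth is unknown, so no SD stands beside a level and each call rests on the deposited q-value. The smallest q, 0.00173, was shared by 19 of the 34 members and 582 of the 1114 listed genes, so it does not rank them. Whether the 2 libraries of a genotype are separate cultures is not stated in the labels, so the spread behind the p-values may be technical.

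Class III peroxidases are plant haem enzymes that are exported to the cell wall or the vacuole. They use hydrogen peroxide to couple phenolic compounds, among them lignin precursors and wall proteins, and they can also make reactive oxygen. Berberine-type oxidases carry a bound flavin and take electrons from sugars, alcohols or alkaloids. Some of them pass these electrons to oxygen, which yields hydrogen peroxide, but this is not known here for each member. Laccases are copper enzymes that couple phenolics with oxygen. The domain text of the authors' deposited table fitted the names, since 21 of the 22 peroxidases carry the plant peroxidase domain, all 11 berberine-type genes the berberine domain, and the laccase gene LAC8 the multicopper oxidase domains. The exception was DOX1, an alpha-dioxygenase of fatty acids that shares the haem peroxidase fold of animals. The same text placed 25 of the 34 products (73.5%) in the endomembrane system, cell wall or apoplast, against 26.9% of all listed genes.

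Most of these genes were higher in fen1. Of the 34, 29 were higher and 5 lower (85.3% higher), where 684 of the 1114 listed genes were higher (61.4%). The authors' p and q values imply 20132 genes tested, of which 5.53% were called, 3.40% as higher and 2.14% as lower. The table does not show how many genes of each family were tested, so these shares have no counterpart within a family. For laccases alone the reference gene table names the family, and 1 of the 16 genes counted there was listed. It gives LAC4 under another name, IRX12, so the count may be incomplete. In whole seedlings, more cells of a type and more RNA per cell cannot be told apart. The median log2 fold change (fen1 over TWT, no pseudocount) in the authors' deposited table was 0.98 over the 34 members and 0.62 over the listed genes with a defined value. At least 2-fold higher were 15 members (44.1%), against 28.7% of all listed genes, and 2 members were at least 2-fold lower. The 28.7% is slightly low, since the 10 listed genes at 0 FPKM in a genotype are in its total but were never counted as 2-fold.

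**Figure D1:**
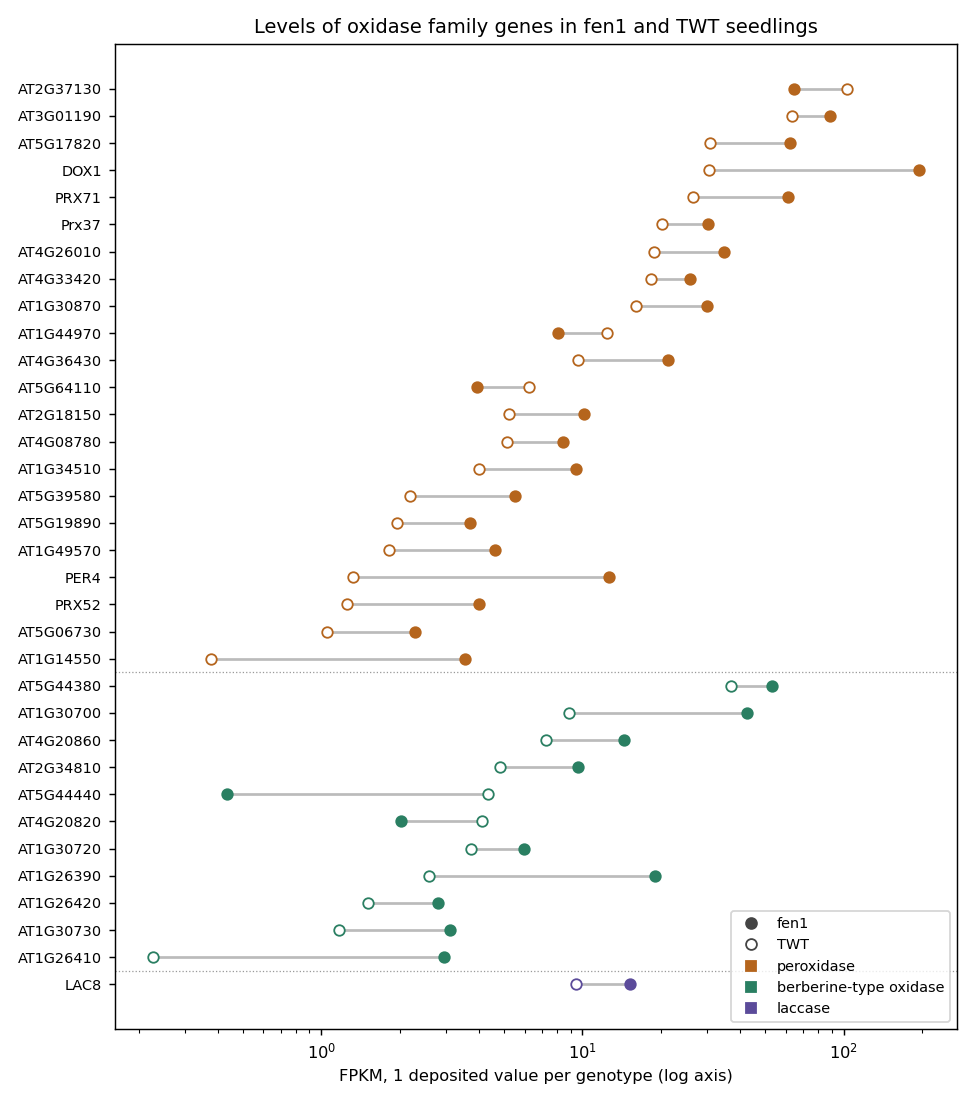
FPKM of each of the 34 genes in fen1 (filled) and TWT (open) on a log axis, 1 deposited value per genotype, in families ordered by TWT level. The filled point lies to the right for 29 genes, and DOX1 has the highest fen1 value (195 FPKM) and AT2G37130 the highest TWT value (103 FPKM).

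Among the peroxidases 19 were higher and 3 lower, with a median log2 fold change of 0.99 in the authors' deposited table. The largest ratio was that of PER4 (AT1G14540, chromosome 1, 4974067 to 4975705, minus strand, TAIR10), known as a gene induced by bacterial flagellin, at 12.6 FPKM in fen1 and 1.32 FPKM in TWT by the authors' deposited table. Its neighbour AT1G14550 stood at 3.56 FPKM in fen1 and 0.377 FPKM in TWT by the authors' deposited table. The log2 fold change by the authors' deposited table was 3.25 for PER4 (q = 0.00173) and 3.24 for AT1G14550 (q = 0.0180). Both were among the 4 lowest of the peroxidases in TWT. Their ratios were close, but with 1 FPKM added to both levels the log2 was 2.55 for PER4 and 1.73 for AT1G14550.

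DOX1 (chromosome 3, 159466 to 162837, minus strand) had 195 FPKM in fen1 and 30.6 FPKM in TWT by the authors' deposited table (log2 2.67, q = 0.00173). With 1 FPKM added to both levels it stood first of the peroxidases, at a log2 of 2.63. The table's curated note on it gives protection against oxidative stress and induction by salicylic acid. It was the only one of the 34 above 100 FPKM in fen1, and its gain of 164 FPKM was the largest absolute change among them. The 21 other peroxidases summed to 495 FPKM in fen1 and 350 FPKM in TWT (ratio 1.41). With DOX1 included the sums were 690 FPKM in fen1 and 381 FPKM in TWT (ratio 1.81).

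The next largest ratio was that of PRX52, described in stems as a peroxidase of lignin formation, with 4.03 FPKM in fen1 and 1.26 FPKM in TWT by the authors' deposited table (log2 1.68). PRX71 (AT5G64120), a cell wall peroxidase that the table's note describes as induced by low osmolarity, had 61.0 FPKM in fen1 and 26.5 FPKM in TWT by the authors' deposited table (log2 1.20, q = 0.00173). Its closest relative in the table's text, AT5G39580, had a similar change at a far lower level, with 5.51 FPKM in fen1 and 2.19 FPKM in TWT by the authors' deposited table (log2 1.33). These 2 genes name each other as best protein match although they lie far apart on chromosome 5.

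Some of the smaller rises were those of abundant peroxidases. AT3G01190 had 88.4 FPKM in fen1 and 63.7 FPKM in TWT by the authors' deposited table (log2 0.47, q = 0.0170), the smallest rise of the 29. AT5G17820 had 62.5 FPKM in fen1 and 30.8 FPKM in TWT by the authors' deposited table (log2 1.02), a larger change. AT4G33420, with 25.8 FPKM in fen1 and 18.2 FPKM in TWT by the authors' deposited table, had a log2 fold change of 0.50 (q = 0.0391).

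The rises given next had log2 values from 0.89 to 1.35 in the authors' deposited table. AT1G49570 had 4.64 FPKM in fen1 and 1.82 FPKM in TWT, and AT1G34510 had 9.44 FPKM in fen1 and 4.02 FPKM in TWT, both in the authors' deposited table. AT4G36430, annotated for response to other organisms, had 21.2 FPKM in fen1 and 9.63 FPKM in TWT by the authors' deposited table, and AT5G06730 had 2.29 FPKM in fen1 and 1.05 FPKM in TWT. The rises of AT2G18150, AT5G19890, AT1G30870 and AT4G26010 lay within log2 values of 0.89 to 0.96 in the authors' deposited table. Of these, AT4G26010 was the most abundant, with 34.8 FPKM in fen1 and 18.7 FPKM in TWT by the authors' deposited table, and AT1G30870 had 30.1 FPKM in fen1 and 16.0 FPKM in TWT. AT2G18150 had 10.2 FPKM in fen1 and 5.21 FPKM in TWT by the authors' deposited table, and AT5G19890 the lowest levels, 3.72 FPKM in fen1 and 1.95 FPKM in TWT.

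Only 3 peroxidases fell, all by less than 2-fold. AT2G37130 (chromosome 2, 15597921 to 15600077, minus strand), annotated for defence against fungi, was the most abundant of all 34 genes in TWT and had 64.4 FPKM in fen1 and 103 FPKM in TWT by the authors' deposited table (log2 −0.68, q = 0.00173). It made up 13.0% of the summed FPKM of the 21 peroxidases in fen1 and 29.5% in TWT. AT1G44970 had 8.09 FPKM in fen1 and 12.4 FPKM in TWT by the authors' deposited table (log2 −0.62, q = 0.0160). AT5G64110 had 3.93 FPKM in fen1 and 6.26 FPKM in TWT by the authors' deposited table (log2 −0.67, q = 0.0369).

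The table lists 2 more genes with the plant peroxidase domain under other descriptions, and both were higher. PRXCB, an abundant wall peroxidase, had 122 FPKM in fen1 and 69.8 FPKM in TWT, and the left-out gene AT5G67400 (RHS19, a root hair gene) had 33.1 FPKM in fen1 and 13.4 FPKM in TWT, both in the authors' deposited table. With them 23 listed genes carry that domain.

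Berberine-type oxidases showed the widest range of change, with 9 higher and 2 lower. Their summed level was 156 FPKM in fen1 and 75.8 FPKM in TWT (ratio 2.06). AT1G26410 (chromosome 1, 9138675 to 9140439, minus strand) had 2.95 FPKM in fen1 and 0.226 FPKM in TWT by the authors' deposited table (log2 3.70, q = 0.00322), the largest ratio of all 34. AT1G26390 had 19.0 FPKM in fen1 and 2.57 FPKM in TWT by the authors' deposited table (log2 2.89, q = 0.00173). With 1 FPKM added to both levels AT1G26390 stood first of the family at 2.49 and AT1G26410 at 1.69, so the order of these 2 depends on the low TWT value of AT1G26410.

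AT1G30700, the second most abundant of the family in fen1, had 42.7 FPKM there and 8.86 FPKM in TWT by the authors' deposited table (log2 2.27, q = 0.00173). The most abundant, AT5G44380, changed least, with 53.2 FPKM in fen1 and 37.2 FPKM in TWT by the authors' deposited table (log2 0.52, q = 0.00593). AT2G34810, annotated for response to wounding and jasmonate, had 9.61 FPKM in fen1 and 4.85 FPKM in TWT by the authors' deposited table (log2 0.99). AT4G20860, annotated for response to cyclopentenone compounds, had 14.4 FPKM in fen1 and 7.25 FPKM in TWT by the authors' deposited table (log2 0.99).

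The largest fall among the 34 was that of AT5G44440 (chromosome 5, 17910557 to 17912312, minus strand), with 0.435 FPKM in fen1 and 4.34 FPKM in TWT by the authors' deposited table (log2 −3.32, q = 0.00173). AT4G20820 had 2.02 FPKM in fen1 and 4.14 FPKM in TWT by the authors' deposited table (log2 −1.04, q = 0.00322). The table's text names AT5G44440 as the best protein match of AT4G20820, while the best match of AT5G44440 is AT5G44410, which was not listed. LAC8, the only listed laccase, had 15.3 FPKM in fen1 and 9.47 FPKM in TWT by the authors' deposited table (log2 0.69, q = 0.0189). LAC4 and LAC17, laccases of lignin formation in xylem, were not listed. Outside the descriptions used, the SKU5-similar gene sks16 has the same copper-binding domains and had 7.43 FPKM in fen1 and 4.60 FPKM in TWT by the authors' deposited table (log2 0.69).

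**Figure D2:**
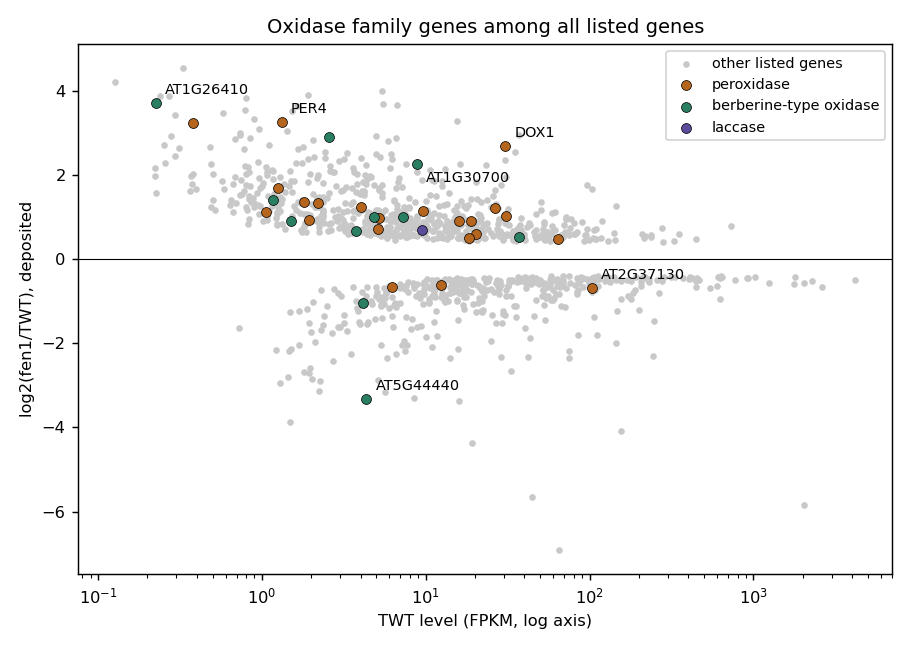
Deposited log2(fen1/TWT) of each listed gene above 0 in both genotypes against its TWT level (FPKM, log axis), with the 3 families in colour and all other listed genes in grey. The coloured points lie mostly above 0, and AT5G44440 stands alone among them at −3.32.

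The table names a best protein match for each of the 34. For 19 of them that match was itself a member, which makes 14 different pairs, 5 of them reciprocal, and for the other 15 the match was not listed. In 18 of the 19 cases both genes had the same direction, the exception being AT1G44970, lower in fen1, whose match AT2G18150 was higher. Since most members were higher, a shared direction is frequent without any tie between relatives. For 13 of the 34 the match lies next door or 1 gene away in the reference gene order. How reads were divided between such copies is not stated, so the levels of close relatives are uncertain. Strand handling is not stated either, which makes the levels of 6 members that overlap another annotated gene uncertain (AT1G30870, AT4G08780, AT4G26010, AT4G33420, AT4G20860 and LAC8).

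With neighbours of a family counted as a tandem group when no more than 10 kb apart, 12 of the 34 genes fell into 5 groups. In 4 of the groups the genes moved in 1 direction, all higher. Since 85.3% of the 34 were higher, a shared direction in a group is frequent without any tie between neighbours. The largest groups were 2 runs of 3 berberine-type genes on chromosome 1. In the first, AT1G26390, AT1G26410 and AT1G26420 span 13.3 kb on the minus strand. AT1G26420 rose least of these, with 2.80 FPKM in fen1 and 1.51 FPKM in TWT by the authors' deposited table (log2 0.90, q = 0.0287), while its neighbour AT1G26410, only 1.13 kb away, had the largest ratio of all. AT1G26400, which lies inside the run, and AT1G26380, named as the best match of AT1G26420, were not listed.

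The second run, AT1G30700, AT1G30720 and AT1G30730, spans 9.97 kb on the plus strand (10892570 to 10902534). AT1G30720 had 5.96 FPKM in fen1 and 3.74 FPKM in TWT by the authors' deposited table (log2 0.67, q = 0.0244). AT1G30730, whose best match is AT1G30720, had 3.11 FPKM in fen1 and 1.17 FPKM in TWT by the authors' deposited table (log2 1.41, q = 0.00173). AT1G30710, the best match of AT1G30700 and its direct neighbour, was not listed.

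The 3 remaining groups are pairs of peroxidases. PER4 and AT1G14550 are transcribed away from each other with 3.32 kb between them. Prx37, a peroxidase annotated to the vacuole, and AT4G08780 are also divergent, 3.84 kb apart on chromosome 4, and rose little. Prx37 had 30.3 FPKM in fen1 and 20.2 FPKM in TWT by the authors' deposited table (log2 0.58, q = 0.00593), and AT4G08780 had 8.43 FPKM in fen1 and 5.12 FPKM in TWT (log2 0.72, q = 0.0244).

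The pair AT5G64110 and PRX71 on chromosome 5 moved in opposite directions, at a log2 of −0.67 for AT5G64110 and 1.20 for PRX71 in the authors' deposited table, although the genes lie 3.28 kb apart on the same strand. At a gap of up to 50 kb 2 more pairs were joined, and each also held 1 higher and 1 lower gene. These were AT4G20860 with AT4G20820, 20.9 kb apart, and AT5G44380 with AT5G44440, 29.1 kb apart. So the 4 groups with 1 direction were the same at both limits, and all 3 mixed groups were pairs. No listed gene of another family lay inside any of these groups. Within 10 kb of any member only 3 other listed genes were found, AT5G06740 and LEA4-5 beside AT5G06730, all higher, and DUR (log2 0.67 in the authors' deposited table) beside AT5G44440, which was lower.

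**Figure D3:**
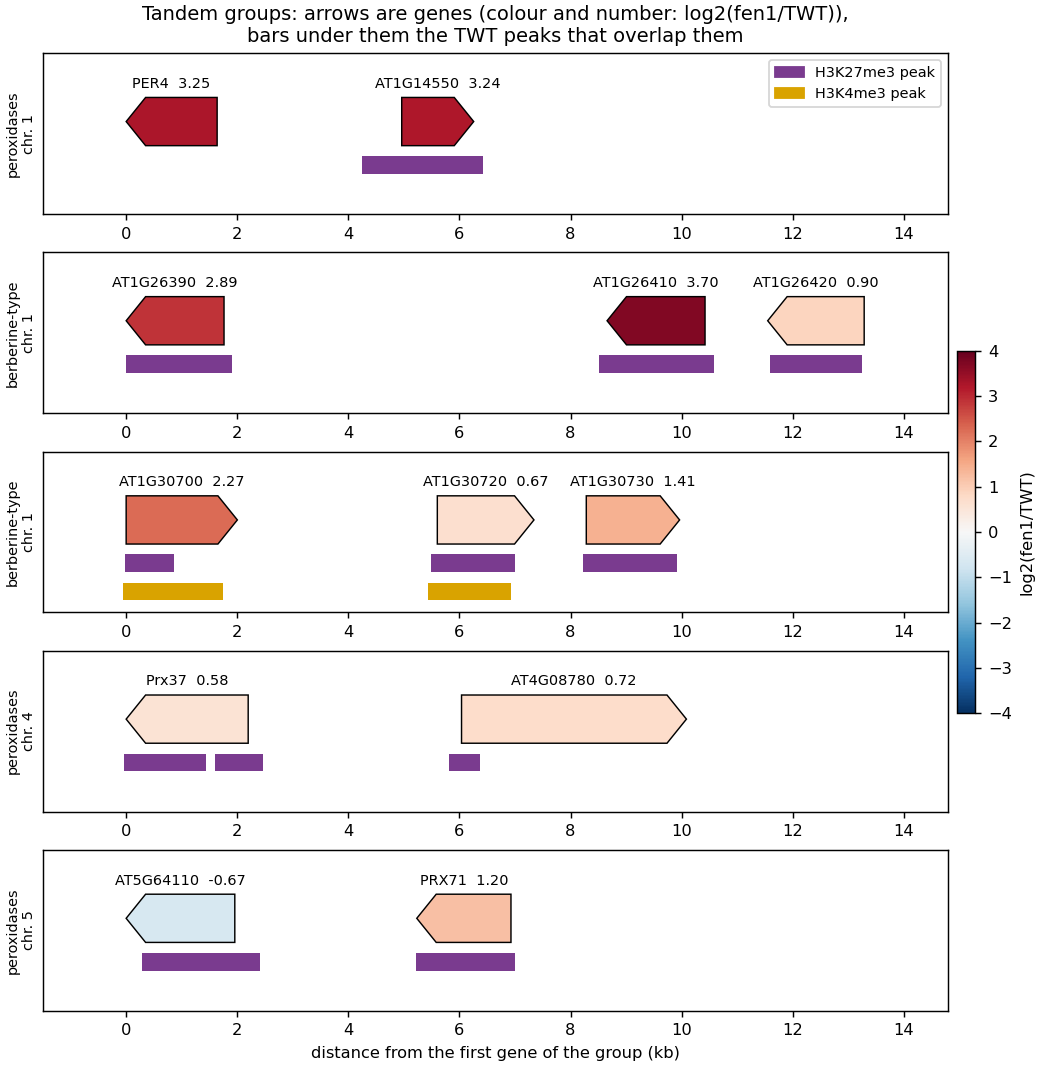
Maps of the 5 tandem groups, drawn to scale in kb from the first gene of each group, with arrows for genes in the direction of transcription, coloured and numbered by deposited log2(fen1/TWT), and bars for the TWT H3K27me3 and H3K4me3 peaks that overlap them. The peroxidase pair on chromosome 5 holds 1 lower and 1 higher gene, both under H3K27me3.

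The tissue text of the deposited table, which the choice of genes did not use, names tissues for 17 of the 34. The root is among them for 14 of the 17 (82.4%), against 122 of 192 listed genes with named tissues (63.5%), and all 14 were higher. For 13 members the text gives only a number of plant structures, without naming them. Of these, 10 were higher and 3 lower. No tissue is given for the remaining 4 members, which were all higher. Both root shares leave out genes of these 2 kinds, so root expression is unknown for them. For 4 peroxidases, AT1G14550, AT1G30870, AT1G34510 and AT4G26010, the root is the only tissue named. The 3 members with named tissues that lack the root were AT5G64110 and AT5G44440, both lower, and AT1G26420, which was higher. Over all listed genes with the root named, 89 of 122 were higher (73.0%), and with tissues named that lack the root 58 of 70 were higher (82.9%). Outside the 3 families 75 of 108 genes with the root named were higher (69.4%). Of the markers of root hairs in the list used here, 1 of 3 was listed, EXPA7, at 9.21 FPKM in fen1 and 3.59 FPKM in TWT by the authors' deposited table. The chlorophyll-binding gene LHB1B1, the only 1 of 3 leaf markers listed, was lower, with 1579 FPKM in fen1 and 2279 FPKM in TWT by the authors' deposited table. Of the embryo and seed markers 3 of 4 were listed, all higher. Over all genes tested, 3.40% were called as higher and 2.14% as lower. Markers that were not listed may have failed the test or not been tested. These lists are short and were chosen with earlier results of these data known. The part of tissue content in these rises was not tested.

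In TWT most of these genes lay under H3K27me3, the mark set by Polycomb complexes on genes held silent in many cells. An H3K27me3 peak overlapped 25 of the 34 (73.5%), against 412 of the 1114 listed genes (37.0%). H3K4me3, a mark of active promoters, was on 9 (26.5%), against 53.8% of listed genes, and no member carried H3K9me2, the mark of silent heterochromatin, against 2.78%. H3K27me3 stood alone on 22, H3K4me3 alone on 6, both on 3 and none of the 3 marks on 3. These are peaks of 1 library per mark in TWT, and since no fen1 peak list was used, no mark was compared between genotypes.

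Most peroxidases carried H3K27me3 alone, while berberine-type genes carried either mark. Of the 22 peroxidases 17 carried H3K27me3 (77.3%) and only 2 H3K4me3, AT2G37130 and AT4G36430, and none carried both. Outside the descriptions used, the peroxidase gene PRXCB did carry both marks, and AT5G67400 had no peak. Of the 11 berberine-type genes 7 carried H3K27me3 and 6 H3K4me3, with both on AT1G30700 and AT1G30720. In AT4G36430 the H3K4me3 peak covered 12.6% of the gene, over its end and not its start, and reached beyond it. Where gene bodies were widened by 1000 bp on both sides, 6 peroxidases had an H3K4me3 peak, and where the start of the gene had to lie in the peak, none did, though the peak on AT2G37130 begins only 2 bp inside the gene.

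**Figure D4:**
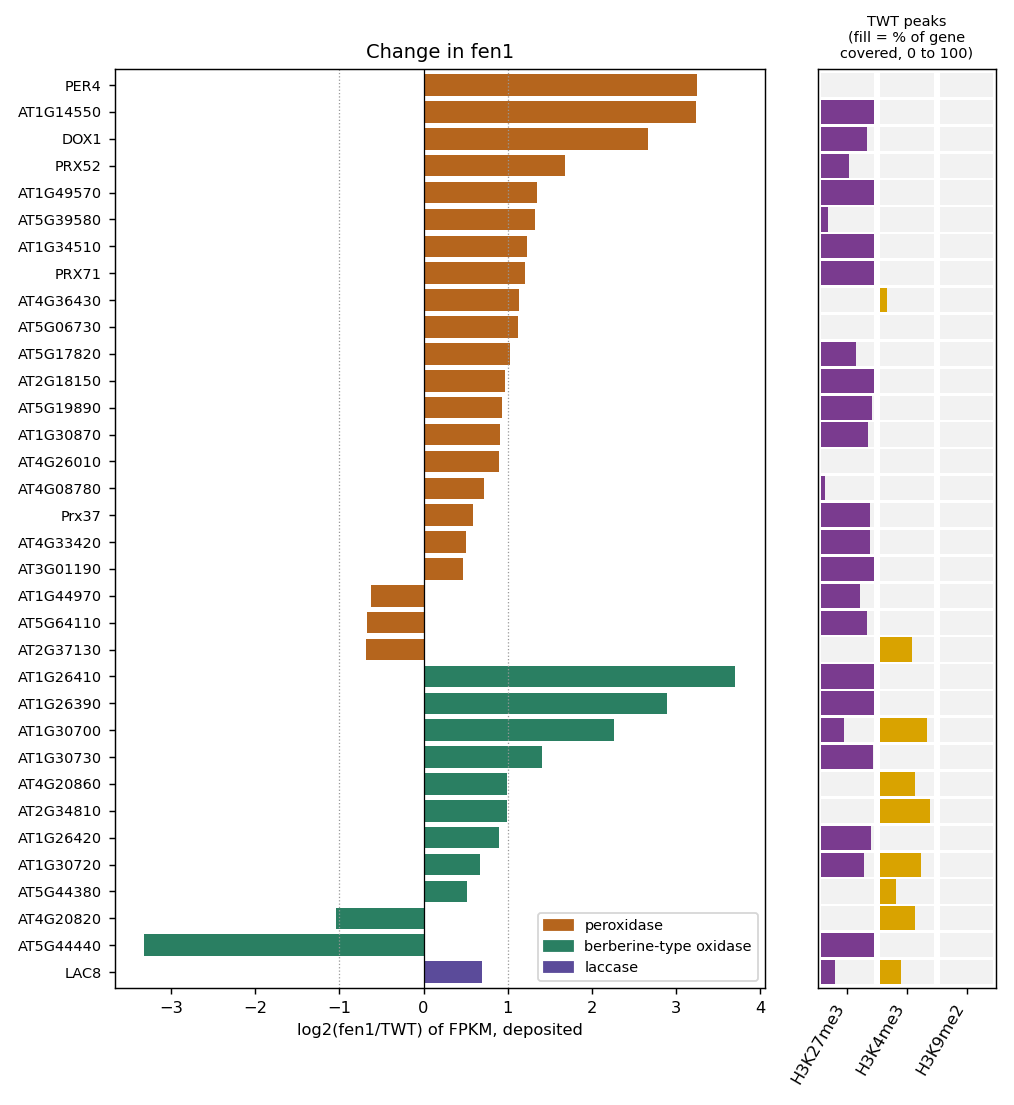
Deposited log2(fen1/TWT) of the 34 genes by family (left, dotted lines at 2-fold) beside the TWT marks (right), where the filled width of a cell is the share of the gene covered by peaks of H3K27me3, H3K4me3 or H3K9me2. H3K27me3 fills cells of higher and of lower genes alike, H3K4me3 is found on 2 peroxidases, and the H3K9me2 column is empty.

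Where present, H3K27me3 covered most of the gene, with a median of 92.5% of gene length and the start of the gene inside the peak in 19 of 25. Complete cover was found on AT1G14550, AT1G34510, AT1G49570, AT2G18150, AT3G01190, PRX71, AT1G26390, AT1G26410 and AT5G44440. The peaks that reached farthest before the gene start were that of PRX52, by 2054 bp, and that of AT1G49570, by 1818 bp. At the other end AT4G08780 was covered over 8.17% of its length and AT5G39580 over 14.2%, by a peak of 288 bp with a score near the floor of the list. No peak was shared by 2 members, neighbours in a tandem group included.

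The authors' peak scores, used here only within a list, placed the H3K27me3 peaks of members above the middle of that list, at a median percentile of 72.5. The highest were those of AT1G34510 at a score of 682 and of PRX71 at 646, against a list median of 125. Their H3K4me3 peaks were weak, at a median score of 226 against a list median of 1202, and at a median percentile of 11.0. The one above the list's median was the peak over the end of AT4G36430, at 1745.

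**Figure D5:**
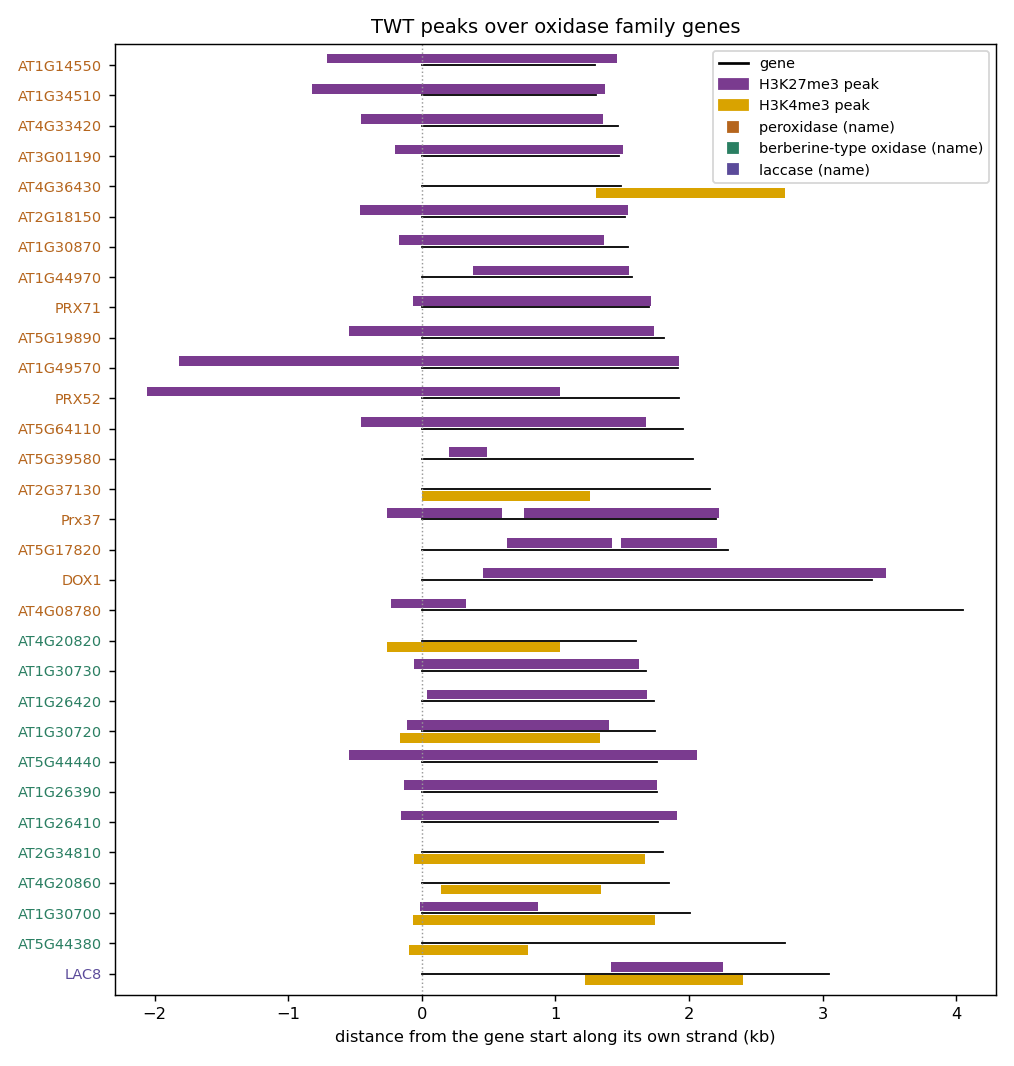
Extent of each TWT peak over the 31 members that carry one, in kb from the start of the gene along its own strand, with the gene as a black line, H3K27me3 above it and H3K4me3 below. Most H3K27me3 bars run from before the gene start to near its end, while the H3K4me3 bar of AT4G36430 begins near the end of the gene.

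Both directions occurred under H3K27me3. Of the 22 genes with H3K27me3 alone 19 were higher and 3 lower, with a median log2 fold change of 0.99 in the authors' deposited table. Of the 6 with H3K4me3 alone 4 were higher and 2 lower, with a median of 0.75, and the 3 with both marks and the 3 with none were all higher. AT1G26410 and AT5G44440, with the largest ratios in either direction, were both wholly covered by H3K27me3, with peak scores of 242 on AT1G26410 and 284 on AT5G44440. PER4 had no peak and its neighbour AT1G14550 was wholly covered by H3K27me3, while an H3K4me3 peak lay 89 bp from PER4 and one 27 bp from AT1G14550. The nearest H3K27me3 peak to PER4 lay 2.61 kb away, that of AT4G26010 3.32 kb and that of AT5G06730 0.769 kb.

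H3K27me3 did not mark only low genes here. Genes with this mark alone ranged from 0.226 to 63.7 FPKM in TWT with a median of 4.73 FPKM, and those with H3K4me3, alone or with H3K27me3, from 3.74 to 103 FPKM with a median of 8.86 FPKM. AT3G01190, at 63.7 FPKM in TWT, was wholly covered by H3K27me3 and had no other peak, and its tissue text names hypocotyl and root. Levels and peaks were both taken from whole seedlings, so neither is known for single tissues.

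Other genes of hydrogen peroxide and lignin metabolism were looked up in lists. Of 18 genes of monolignol synthesis, which feeds peroxidases and laccases, 1 was listed, near the 5.53% called over all genes tested. This was PAL3, with 12.2 FPKM in fen1 and 22.6 FPKM in TWT by the authors' deposited table (log2 −0.89). Of 10 NADPH oxidase genes, whose products make superoxide, only RBOHC (RHD2), which acts in root hair growth, was listed. RBOHC had 5.21 FPKM in fen1 and 3.04 FPKM in TWT by the authors' deposited table (log2 0.78). None of the 8 Casparian strip genes and none of the 5 xylem markers was listed. With 5.53% called over all genes tested, such counts in short lists, that of the NADPH oxidases included, carry no result about the lists. For a gene that is not listed, the table does not tell whether it failed the test or was never tested.

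Of 9 genes for scavengers of reactive oxygen inside the cell, 4 were listed, all lower, and 5 (CAT1, CAT3, APX1, APX2 and MSD1) were not. Over all genes tested, 2.14% were called as lower. The list held only catalases, ascorbate peroxidases and superoxide dismutases, and other kinds of scavenger were not looked up. It was chosen with earlier results of these data known, so its count is no test of scavengers as a group. The chloroplast superoxide dismutase gene CSD2 had 86.8 FPKM in fen1 and 201 FPKM in TWT by the authors' deposited table (log2 −1.21, q = 0.00173). Its cytosolic counterpart CSD1 had 152 FPKM in fen1 and 264 FPKM in TWT by the authors' deposited table (log2 −0.80, q = 0.00173). The iron superoxide dismutase gene FSD1 had 663 FPKM in fen1 and 910 FPKM in TWT, and the peroxisomal catalase gene CAT2 had 459 FPKM in fen1 and 627 FPKM in TWT, both in the authors' deposited table. At a q under 0.01 only CSD1 and CSD2 were left.

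Of 7 genes of indole cyanide and camalexin synthesis, a defence path, 4 were listed and all 4 were higher, where 3.40% of all genes tested were called as higher. Their median log2 fold change by the authors' deposited table was 3.60. The list was chosen with earlier results of these data known, so its count is no test of the path. CYP71A12 had 84.1 FPKM in fen1 and 6.65 FPKM in TWT, and the camalexin gene PAD3 (CYP71B15) had 11.0 FPKM in fen1 and 6.63 FPKM in TWT, both in the authors' deposited table.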

How the data were processed

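RNA was measured in 2 fen1 and 2 TWT libraries and chromatin in 10 further libraries, of which 3 TWT peak lists were used; groups follow the sample titles. Cuffdiff 2.1.1, TopHat2 2.1.1, Bowtie 0.12.9 and SAMtools appear in the submitters' processing notes, with the genome build TAIR10, which is of the Columbia accession whereas the plants were C24. The deposited expression values were read as FPKM from their Cuffdiff-like layout, 1 per genotype. The log2 fold change, p-value and q-value are the authors' deposited ones, and the log2 has no pseudocount. The peak score is the authors' deposited value; peak names point to MACS, whose settings, like strand handling and multi-mapping, are not stated.

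Computed here with Python 3.11.15, pandas 2.3.3 and numpy 2.4.6 were family counts, medians, sums, peak overlaps (at least 1 bp of the gene body, BED starts made 1-based), tandem groups (gap up to 10 kb) and the number of genes tested, from q times rank over p. Overlap, grouping and that number were tested on simulated data. A call is a deposited q under 0.05. Gene names, order and overlaps came from a TAIR10.1 gene table, in which all 34 members were found; 3 NADPH oxidase names and 1 Casparian strip name are not in it. Members and lists were chosen with earlier results of these data known. All members are named, and full values go to the 3 largest rises and falls and the most abundant gene of each family and to tandem genes. Protein and promoter sequences were not used here, so the planned identities and motifs were not computed. Family sizes were not computed either, apart from the count of laccases, which may be incomplete.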

Additional observations from a re-analysis of the deposited data

How the results depend on the processing

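Of the 34 genes 23 passed a q under 0.01. That stricter q left 3 members lower, 1 peroxidase lower, LAC8 no longer called (0 laccases) and 2 reactive oxygen scavengers lower. Requiring at least 2-fold left 15 members higher and 2 lower, 11 peroxidases higher and 0 lower, 4 berberine-type genes higher, 0 laccases, 0 monolignol and 0 NADPH oxidase genes and 1 scavenger. With log2(FPKM + 1), which cannot turn a direction, the median was 0.86 over members, 0.87 over peroxidases and 0.86 over berberine-type genes. With 1000 bp added on both sides H3K4me3 was on 14 members and 6 peroxidases, with at least 50% of the gene covered on 1 peroxidase, and with the gene start in the peak, an alternative added after seeing the data, on 5 members and 0 peroxidases. A minimum of 1 FPKM, a peak score of at least 100, leaving out DOX1 (also added later) and tandem groups defined by gene order changed no count by over 1.5 times. A gap of 50 kb gave 3 tandem groups of mixed direction, against 1 at 10 kb. No paired analysis was possible because the table holds 1 value per genotype, and for the same reason no library could be left out. FPKM precision cannot be given without depth, and low genes such as AT1G26410 and AT1G14550 are the least certain.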
